A study of Caenorhabditis elegans with 6 samples.

Results

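The genes described here are those of the *C. elegans* machinery that reads the X chromosome number and equalizes X-linked expression between the sexes. They were chosen by public gene name, as dpy-21, dpy-26, dpy-27, dpy-28, dpy-30, sdc-1, sdc-2, sdc-3, xol-1 and sex-1, and all 10 names were found among the 20240 gene models of the count table. The study separated the anterior AB cell and the posterior P1 cell of 2-cell embryos by hand and sequenced amplified RNA (RNA-amp-seq) from pools of matched cells, with 3 AB and 3 P1 libraries. Embryos came from gravid adults of the wild-type N2 strain, and no mutation or treatment distinguished the groups. All embryos had been through bleach, chitinase and chymotrypsin to remove the eggshell before the cells were taken. Each library is therefore a pool of 1 kind of cell from several embryos, with the sister cells in the library of the same number, so a difference between AB and P1 is a difference between pools and says nothing of single embryos.

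In *C. elegans*, XX animals develop as hermaphrodites and XO animals as males. X-linked signal elements such as SEX-1 repress xol-1, the switch gene that promotes the male fate when it is active. In XX embryos with xol-1 off, SDC-2 and its partners load a condensin-like dosage compensation complex on both X chromosomes and lower their transcription. Hermaphrodite mothers are known to supply several of these products to the egg, and RNA of the 2-cell embryo is held to be largely maternal. Condensins are ring-shaped complexes of a pair of SMC ATPases, a kleisin that closes the ring and HEAT-repeat subunits. Several subunits of the dosage compensation condensin also serve in mitotic and meiotic chromosome condensation.

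RNA of 9 of the 10 genes was present in both cells, and xol-1 RNA was close to absent. A gene was counted as present if its mean over all libraries exceeded 10 normalized read counts (raw reads divided by 1 size factor per library) and it was above 0 in each cell. The same 9 passed with a minimum of 50. None of the 9 passed the test for a difference between AB and P1, which was an adjusted p under 0.10 with edgeR. In the same test 116 of 7945 present gene models did (1.46%), 48 of them higher in AB (0.604%) and 68 higher in P1 (0.856%). At an unadjusted p under 0.05, edgeR gave 1 member, dpy-27, against 10.4% of present gene models, and DESeq2 gave 0 members at either threshold, against 2.14% (adjusted) and 8.66% (unadjusted) of present gene models. With the replicate number as a block, edgeR called 0 members, against 1.15%, and gave dpy-27 and dpy-28 at an unadjusted p under 0.05, against 11.1%. The P1/AB fold change was negative for 8 of the 9 genes, against 48.7% of present gene models. Its median over the 9 was -0.42 on the log2 scale, against 0.01 over the present gene models.

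These libraries held between 21249850 and 35591254 counted reads, and 3 reads, the floor used here for detection, corresponded to 0.0843 to 0.141 CPM, which scales reads to a common library total. P1 replicate 1 stood apart from the other libraries. It held the fewest counted reads, and 8575 gene models had reads in it, against 9458 to 11638 elsewhere. Its log-scale correlation with the other P1 libraries was 0.913 to 0.924, against 0.965 to 0.972 among the AB libraries and 0.964 between P1 replicates 2 and 3. The 100 most abundant gene models took 24.5% of its reads and 19.1 to 19.9% of the reads elsewhere. The AB markers mex-3, neg-1 and erm-1 were all higher in AB (log2 fold changes of -0.98, -1.90 and -2.33, all called). Of the P1 markers, chs-1 and pgl-3 were called higher in P1, while pos-1 (0.18) and nos-2 (0.40) did not pass. The paper reported mex-3, neg-1, erm-1, chs-1 and pgl-3 as asymmetric from these libraries, so their calls are not an independent check of the labels. By single-molecule imaging of RNA in embryos, the paper also found mex-3 and neg-1 higher in AB and chs-1 higher in P1. In that imaging pgl-3 did not differ significantly from its control transcript. Earlier work cited there had placed mex-3 in AB and pos-1 in P1. For mex-3, P1 was below AB within every matched pair (-0.89, -1.07 and -0.98 on the log2 scale), the direction that the labels give. Sperm markers were at 0 for 4 of 6 genes and summed to at most 6.97 normalized read counts in a library. Of 8 early zygotic markers, 4 were at 0 and the sum was at most 19.3. Hypodermal markers summed to at most 21.7, and the 1 of 2 muscle markers that could be matched to at most 51.2. Adult intestine markers summed to 255 normalized read counts in AB replicate 1 and 291 in P1 replicate 1, against 1.94 to 17.8 in the other libraries. Oocyte and early embryo markers, 6 of 6 of them present, summed to 144974 in AB replicate 1 and 182819 in P1 replicate 1, against 88747 to 113258 elsewhere. The part of either marker set in the values of replicate 1 was not tested.

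**Figure D1:**
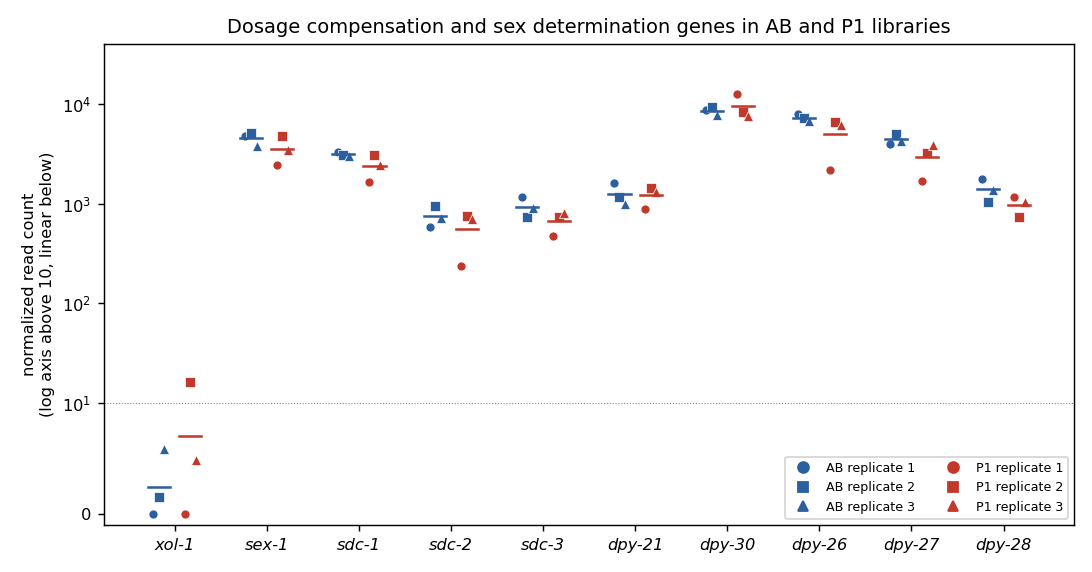
Normalized read counts (y axis, logarithmic above 10 and linear below) of the 10 genes in each library, with AB in blue, P1 in red, a symbol for each replicate and a bar at each group mean (n = 3). The 9 present genes lie between 234.9 and 12668 normalized read counts, xol-1 lies at 0 in 2 libraries, and P1 replicate 1 (red circles) is the lowest library for 7 genes and the highest for dpy-30.

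xol-1, the switch gene (chromosome X, 8041278 to 8044360 in ce10, plus strand), had 0, 2 and 7 raw reads in AB replicates 1, 2 and 3 and 0, 14 and 5 in P1 replicates 1, 2 and 3. These are 28 reads among 164128619, with a highest library value of 0.601 CPM. It reached the floor of 3 reads in 3 libraries and was at 0 in 2. The groups overlapped, and since 3 libraries were at or under the floor no fold change is given. An AB/P1 difference of xol-1 RNA was not detectable at this depth, and counting floors of this kind cover counting error only, since amplified reads are not independent molecules.

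sex-1 (chromosome X, 10201268 to 10205361, minus strand) encodes a nuclear hormone receptor that acts as an X-linked signal and represses xol-1. It had 4816, 5144 and 3759 normalized read counts in AB replicates 1, 2 and 3 and 2469.8, 4774 and 3417 in P1 replicates 1, 2 and 3. P1 replicate 1 was the lowest library and the groups overlapped, because P1 replicate 2 exceeded AB replicate 3. edgeR gave a log2 fold change (P1/AB) of -0.37 (SE 0.25, adjusted p = 0.695), which was -0.18 without P1 replicate 1 and -0.67 without P1 replicate 2, not called in either. Within matched pairs the log2 ratios were -0.96, -0.11 and -0.14.

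The 4 other signal elements acting on xol-1 were all present and none was called. They are fox-1, which encodes an RNA-binding protein, the homeobox gene ceh-39, and the autosomal signals sea-1 and sea-2, which encode a T-box and a zinc finger protein. ceh-39 had 5470.0, 5225 and 5329.9 normalized read counts in AB and 3032, 3691 and 3494 in P1. All 3 AB libraries lay above all 3 P1 libraries, as in 8.81% of present gene models. Its log2 fold change was -0.65 (95% interval -1.11 to -0.20, adjusted p = 0.277, edgeR), and the 3 pairs gave -0.85, -0.50 and -0.61. It passed the threshold in 4 of 17 alternative analyses, with adjusted p between 0.00641 and 0.836 over the 17. DESeq2 was among the 4 (adjusted p = 0.0527) and called 2.14% of present gene models. The log2 fold changes of fox-1, sea-1 and sea-2 were -0.22, -0.19 and -0.00, with intervals that included 0.

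Among the recruiting subunits, the 3 sdc genes had lower means in P1 than in AB and none was called. SDC-2 is the X-recognizing protein that brings the complex to the chromosome in XX embryos. Its gene (chromosome X, 11522647 to 11533384, plus strand) had 579.7, 948 and 726 normalized read counts in AB and 234.9, 751 and 703.5 in P1. P1 replicate 1 was well below the other 5 libraries, while the remaining P1 values lay within the AB range. For sdc-2 the log2 fold change was -0.42 (SE 0.35, adjusted p = 0.713, edgeR), and this SE was the widest among the 9 present genes. Without P1 replicate 1 it was -0.071 and without P1 replicate 2 it was -0.71, not called in either.

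sdc-3 (chromosome V, 15039340 to 15047774, minus strand) encodes a zinc finger protein that acts with SDC-2 in recruitment. Normalized read counts of sdc-3 were 1166, 740.0 and 899.5 in AB and 472.5, 731 and 811 in P1. P1 replicate 1 was again lowest, and P1 replicate 3 exceeded AB replicate 2. sdc-3 gave a log2 fold change of -0.48 (SE 0.29, adjusted p = 0.686, edgeR). This was -0.30 without P1 replicate 1 and -0.095 without replicate 1 in both cells, not called in either.

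sdc-1 (chromosome X, 16275696 to 16282363, plus strand), which encodes another zinc finger protein of the complex, had 3285, 3095 and 2997 normalized read counts in AB and 1648, 3059 and 2466 in P1. The AB libraries differed by little among themselves, with a mean of 3126 ± 146 (SD, n = 3), and the P1 libraries by more, with a mean of 2391 ± 708 (SD, n = 3). P1 replicate 2 lay within the AB range and the other P1 libraries below it. sdc-1 was at -0.39 on the log2 scale (SE 0.24, adjusted p = 0.686, edgeR), at -0.20 without P1 replicate 1 and at -0.64 without P1 replicate 2, not called in either.

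The remaining members of the recruitment arm, dpy-21 and dpy-30, had fold changes nearer to 0. DPY-21 is a JmjC-domain demethylase that produces monomethylated H4K20, a mark of the compensated X. dpy-21 (chromosome V, 17936734 to 17949002, minus strand) had 1595, 1171 and 999 normalized read counts in AB and 893, 1438 and 1311 in P1. Its highest and lowest libraries were the AB and the P1 library of replicate 1, and the other 4 lay between them with P1 above AB in both pairs. Its log2 fold change was -0.05 (95% interval -0.59 to 0.49, adjusted p = 0.968, edgeR), from pair ratios of -0.84, 0.30 and 0.39. With the length correction (a trend on transcript length removed from each library) it was 0.24. Without replicate 1 in both cells it was 0.33, and no member was called without replicate 1, against 6.7% of present gene models.

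DPY-30 belongs both to the dosage compensation complex and to the SET-2/COMPASS and MLL complexes, which methylate H3K4. dpy-30 (chromosome V, 12191500 to 12192136, plus strand) had 8629.7, 9230.0 and 7777 normalized read counts in AB and 12668, 8272 and 7537 in P1. P1 replicate 1 was the highest library, P1 replicate 2 lay within the AB range and P1 replicate 3 below it. It gave a log2 fold change of 0.14 (95% interval -0.35 to 0.64, adjusted p = 0.856, edgeR), and it became -0.14 without P1 replicate 1 and -0.20 with the length correction.

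The 3 condensin subunits that are members, dpy-27, dpy-26 and dpy-28, had the most negative fold changes of the 9 present genes, and none was called. DPY-27 is the SMC4-type ATPase found only in the dosage compensation condensin, where it replaces the SMC-4 of the mitotic complexes. dpy-27 (chromosome III, 3813535 to 3819661, minus strand) had 3926, 5033 and 4290.3 normalized read counts in AB and 1703, 3259.6 and 3924 in P1. All AB libraries were above all P1 libraries, but AB replicate 1 exceeded P1 replicate 3 by only 2.76 normalized read counts. This gave a log2 fold change of -0.58 (95% interval -1.12 to -0.04, unadjusted p = 0.0352, adjusted p = 0.576, edgeR). The pairs gave -1.20, -0.63 and -0.13, and without P1 replicate 1 the fold change was -0.32 and not called.

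DPY-26 is the kleisin of the complex, shared with condensin I. dpy-26 (chromosome IV, 12445963 to 12451271, minus strand) had 7886, 7220.3 and 6677 normalized read counts in AB and 2182, 6572 and 6222 in P1. The groups did not overlap, yet P1 replicates 2 and 3 were at 91.0% and 93.2% of their paired AB libraries and P1 replicate 1 at 27.7%. For dpy-26 the log2 fold change was -0.54 (95% interval -1.14 to 0.05, adjusted p = 0.668, edgeR). It was -0.21 without P1 replicate 1 and -0.82 without P1 replicate 2. Only the latter was called (adjusted p = 0.0900, edgeR, with 2.71% of present gene models called higher in AB in that fit), and adjusted p ran from 0.0900 to 0.986 over all alternatives. dpy-26 and dpy-27, 2 of the 9 present members, were the only ones with all AB libraries above all P1 libraries, against 8.81% of present gene models.

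DPY-28 is the HEAT-repeat subunit of the CAP-D2 type, also shared with condensin I. dpy-28 (chromosome III, 10763048 to 10777244, plus strand) had 1784, 1033 and 1372 normalized read counts in AB and 1168, 729 and 1045 in P1. Replicate 2 was the lowest in each cell and replicate 1 the highest, so the groups overlapped while the pairs did not differ in direction. P1 was at 65.4%, 70.5% and 76.1% of AB in pairs 1, 2 and 3, which are log2 ratios of -0.61, -0.50 and -0.39 (SD 0.11). This was the narrowest spread of pair ratios among the 9 present genes. Its log2 fold change was -0.52 (95% interval -1.06 to 0.03, adjusted p = 0.661) without a block and -0.51 (adjusted p = 0.624) with the replicate number as a block, both with edgeR. Without P1 replicate 1 it was -0.68 and called (adjusted p = 0.0295, edgeR, with 3.51% of present gene models called higher in AB in that fit). Without replicate 1 in both cells it was -0.45 and not called (adjusted p = 0.357, edgeR), and over all alternatives adjusted p ran from 0.0295 to 0.9752. Counts were scaled per library, so a P1/AB ratio compares shares of the RNA in each library and not amounts per cell. AB is the larger cell, and this size difference does not enter the ratio. In a bulk pool, a lower share in every cell and fewer cells contributing RNA cannot be told apart for this or any other gene.

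**Figure D2:**
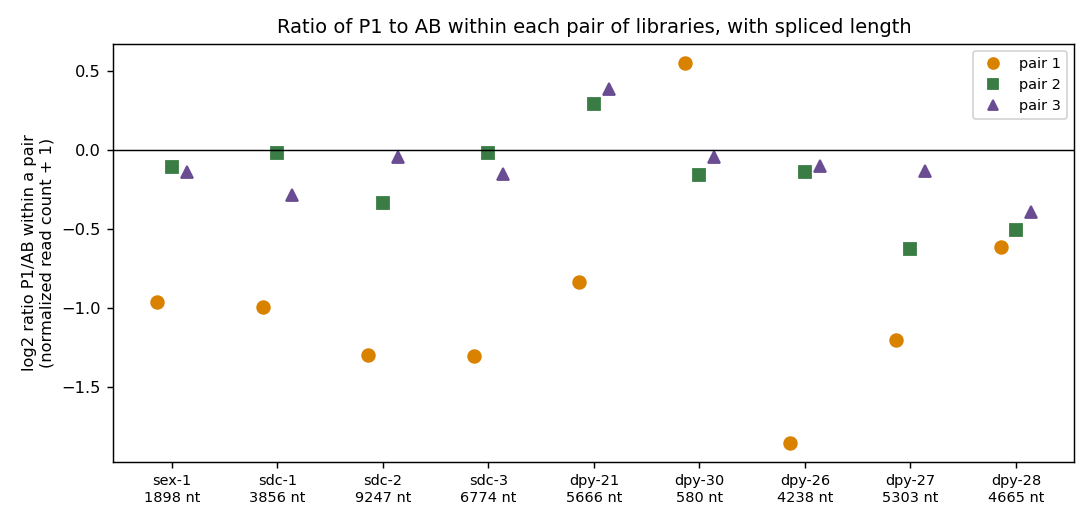
Log2 ratio of P1 to AB within each pair of matched libraries (y axis, normalized read count plus a pseudocount of 1) for the 9 present genes, with spliced length in nucleotides under each name. Pair 1 (orange) spans -1.85 to 0.55, pairs 2 and 3 (green and purple) span -0.63 to 0.39, and the 3 ratios of dpy-28 lie closest together.

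P1 lay further below AB in pair 1 than in the other pairs. The median log2 ratio of the 9 present members was -0.99 in pair 1, -0.14 in pair 2 and -0.13 in pair 3, against -0.03, 0.01 and -0.00 over the present gene models. In each pair 8 of the 9 members were negative, the exception being dpy-30 in pair 1 and dpy-21 in pairs 2 and 3. P1 was below AB in all 3 pairs for 7 members, against 21.4% of present gene models. P1 replicate 1 was the lowest of the 6 libraries for 7 members, against 37.3%. The median log2 fold change of the 9 members was -0.20 without P1 replicate 1 and -0.13 without replicate 1 in both cells.

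Transcript length moved with the ratio in pair 1. The Spearman correlation across 7806 present gene models between the pair ratio and the spliced length (the longest annotated transcript) was -0.519 in pair 1, -0.036 in pair 2 and 0.040 in pair 3, given as a description since genes of a pair share their libraries. Present gene models under 1000 nt had a median log2 ratio of 0.74 in pair 1, and those over 4000 nt of -0.89. The median spliced length was 4665 nt over the members and 1546 nt over the present gene models. 6 members are longer than 4000 nt, namely sdc-2, sdc-3, dpy-21, dpy-27, dpy-28 and dpy-26, and dpy-30 at 580 nt is the short member. Against the other gene models over 4000 nt, the pair 1 ratio of dpy-26 was at percentile 14.6, sdc-3 at 29.3, sdc-2 at 29.5, dpy-27 at 33.7, dpy-21 at 52.8 and dpy-28 at 64.6. sex-1, with 1898 nt, was at percentile 15.4 of its class of 1000 to 2000 nt. Of the 9 members, 7, 7 and 8 lay below the median of their length class in pairs 1, 2 and 3. With the length trend of each library removed the median log2 fold change of the members was -0.19, against 0.00 over the present gene models, and none was called, against 2.23%. In that fit dpy-30 in place of dpy-21 was among the 8 negative members. The length classes and this correction were chosen after the data had been seen. The correction removes every AB/P1 difference that goes with length, whatever its source. From these libraries the paper reported that AB-enriched transcripts were longer than symmetric ones and P1-enriched transcripts shorter.

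**Figure D3:**
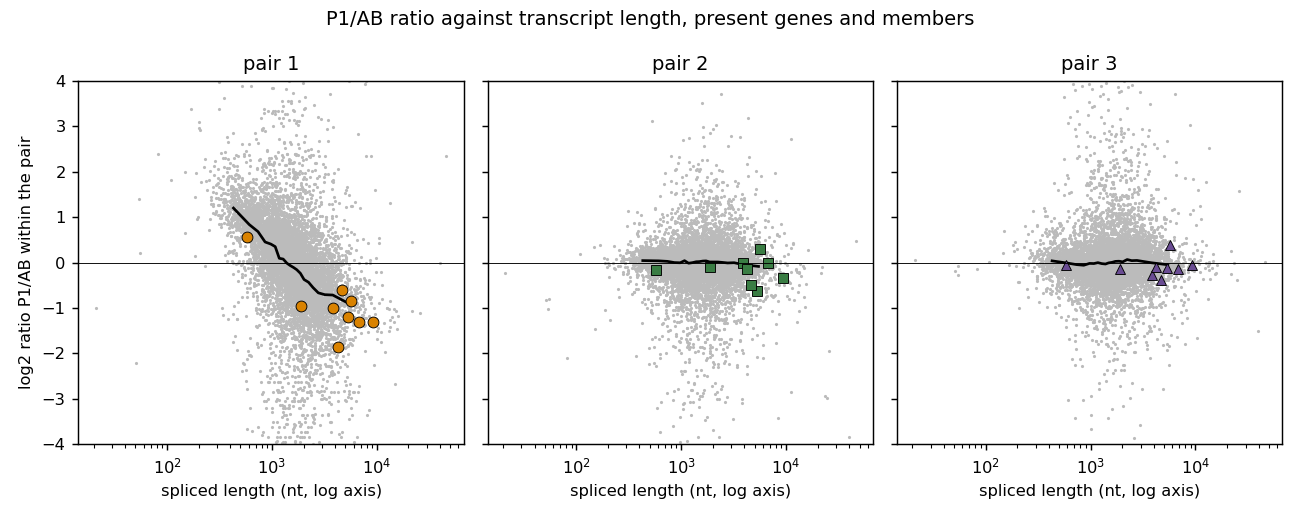
Log2 ratio of P1 to AB (y axis, drawn from -4 to 4) against spliced length (x axis, nucleotides, log scale) for present gene models (grey points) and the 9 present members (large symbols) in each pair, with the median of successive length bins as a black line. The median line falls with length in pair 1 (Spearman correlation -0.519) and is near 0 in pairs 2 and 3, and most members follow the lower right of the cloud in pair 1, with dpy-30 among the short transcripts.

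Levels were compared between genes as normalized read counts per kb of spliced length, averaged over the 6 libraries. dpy-30 was the most abundant at 15549.9 per kb, at percentile 97.9 of the present gene models. It was followed by sex-1 at 2141, dpy-26 at 1446, sdc-1 at 715, dpy-27 at 696, dpy-28 at 255, dpy-21 at 218, sdc-3 at 119 and sdc-2 at 71.1 per kb. The highest and lowest of these differed by 219-fold, and sdc-2 stood at percentile 22.5. Without the division by length dpy-30 averaged 9019 and sdc-2 657 normalized read counts, with sdc-2 at percentile 39.8. Much of the 219-fold span therefore came from their lengths of 580 and 9247 nt. The order of sdc-1 and dpy-27 and that of dpy-28 and dpy-21 were within the spread over libraries, and dpy-27 moved above sdc-1 with coding length. Without a length correction dpy-27 was above sdc-1 and dpy-21 above dpy-28, and dpy-26 moved above sex-1, while dpy-30 stayed first, and sdc-3 and sdc-2 last, under each of the 3 other scalings tried. The amplification was primed at the poly(A) end, and how evenly reads covered long transcripts was not tested.

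Of the 4 X-linked members, sex-1, sdc-1 and sdc-2 were present. On the X, 906 of 2791 gene models were present (32.5%), against 7039 of 17440 on the autosomes (40.4%), with median levels of 287 and 981 normalized read counts per kb. Among the present X-linked gene models, the level per kb of sex-1 was at percentile 92.5, sdc-1 at 69.9 and sdc-2 at 31.1.

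The other condensin subunits also had P1 replicate 1 as their lowest library. The dosage compensation condensin consists of DPY-27, MIX-1, DPY-26, DPY-28 and CAPG-1. None of its 5 genes was called, against 1.46% of present gene models. All 5 log2 fold changes were negative, against 48.7%, and their median was -0.52. mix-1, the SMC2-type ATPase of every condensin, had 9095, 10902 and 11203 normalized read counts in AB and 3179.9, 9602 and 9989.7 in P1. The CAP-G subunit gene capg-1 had 7380.5, 7569 and 7079.5 in AB and 2039.3, 6773 and 6514 in P1. For both, P1 replicate 1 was far below the other 5 libraries, and the log2 fold changes were -0.46 (adjusted p = 0.695) and -0.52 (adjusted p = 0.682) with edgeR. Without P1 replicate 1 they were -0.11 and -0.17. Without P1 replicate 2 capg-1 was called (adjusted p = 0.0956, edgeR, the only one of 17 alternatives that did so). That fit called 2.71% of present gene models higher in AB.

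The 8 genes of the mitotic condensins I and II include mix-1, dpy-26, dpy-28 and capg-1 from above, so they are not a separate set. Of these, dpy-26 and dpy-28 are members. All 8 genes were negative with 0 called, against 48.7% and 1.46% of present gene models. P1 replicate 1 was the lowest library for 7 of the 8, against 37.3%. That share covers genes of any length, while all 8 transcripts have at least 2000 nt. In pair 1 the median log2 ratio was -0.58 for gene models of 2000 to 4000 nt and -0.89 for those over 4000 nt. Within these length classes the pair 1 ratios of the 8 ran from percentile 10.9 for capg-1 to 64.6 for dpy-28. Their log2 fold changes ran from -0.57 for capg-2, a condensin II subunit, to -0.39 for the condensin II kleisin kle-2, and these were -0.23 and -0.13 without P1 replicate 1. capg-2 passed in 1 of 17 alternatives, without P1 replicate 2 (adjusted p = 0.0701, edgeR, with 2.71% of present gene models called higher in AB). smc-4, the mitotic counterpart of dpy-27, had a log2 fold change of -0.49 (adjusted p = 0.674, edgeR), and of -0.22 without P1 replicate 1.

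Ratios between subunits within a library are free of the library's size factor, but not of a trend with length such as that in pair 1. Per kb, dpy-27 was at 30.6%, 36.7% and 39.3% of smc-4 in AB replicates 1, 2 and 3 and at 35.4%, 26.9% and 40.4% in P1, with means of 35.5% ± 4.44 and 34.2% ± 6.80 (SD, n = 3). The groups overlapped, and the means differed by less than the spread between libraries. capg-1 was at 103% to 117% of dpy-26 in all 6 libraries. dpy-28 was at 20.6%, 13.00% and 18.7% of dpy-26 in AB and at 48.6%, 10.1% and 15.3% in P1. Here P1 replicate 1 alone was high, and the other 5 libraries lay between 10.1% and 20.6%. sdc-2 was at 5.94% to 12.8% of sdc-1, and sdc-3 at 13.6% to 20.2% of sdc-1, with overlapping groups in both. The lowest value of sdc-2 was in P1 replicate 1. Without the division by length sdc-2 was at 14.3% to 30.6% of sdc-1.

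**Figure D4:**
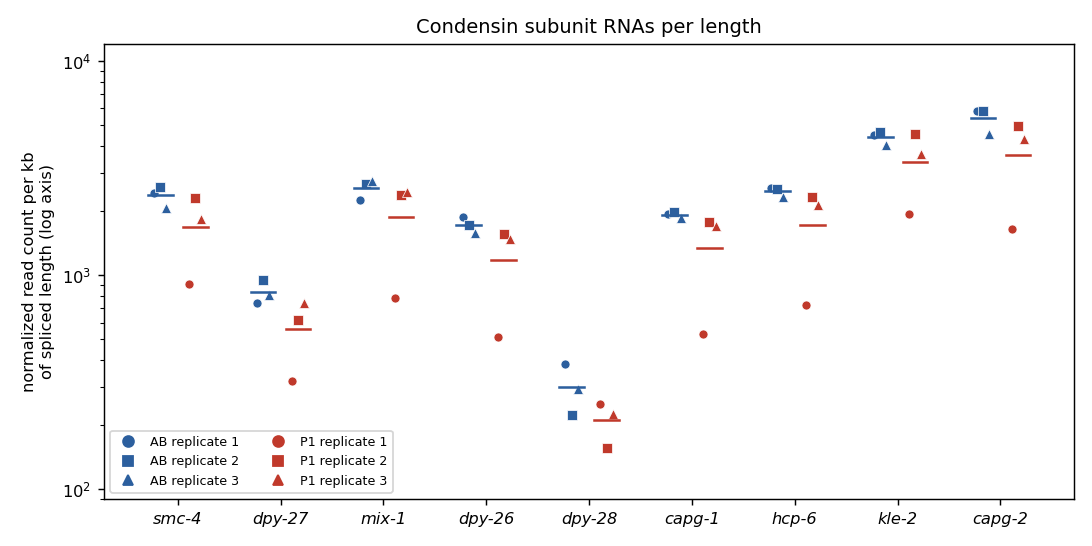
Normalized read counts per kb of spliced length (y axis, log scale) of 9 condensin subunit genes in each library, AB in blue and P1 in red, with a symbol for each replicate and bars at group means (n = 3). P1 replicate 1 (red circles) is the lowest library for 8 of the 9 genes, against 37.3% of present gene models of any length, and dpy-28 is the exception. All 9 transcripts have at least 2000 nt. dpy-27 and dpy-28 have the lowest levels per kb.

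The 20 genes of a list of sex determination genes, RNA regulators of the germ line among them, were all present. Of these, 1 was called, against 1.46% of present gene models. This was fbf-2, which encodes a PUF-family RNA-binding protein of the germ line, with 298, 260.0 and 328 normalized read counts in AB and 1498, 1072 and 805.5 in P1. All P1 libraries were above all AB libraries. Its log2 fold change was 1.92 (95% interval 1.31 to 2.53, adjusted p = 0.000654, edgeR), and it passed in all 17 alternatives (adjusted p between 8.8e-09 and 0.0623). fbf-2 has a near-identical paralog, fbf-1, and how reads shared by the pair were counted is not stated, so its value is uncertain.

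The core genes her-1, tra-2, tra-1 and fem-3 were not called. her-1, which encodes the secreted masculinizing ligand, had 9.30, 36.3 and 24.3 normalized read counts in AB and 19.01, 9.30 and 23.3 in P1, close to the presence limit and with overlapping groups. tra-2, which encodes its receptor, had a log2 fold change of -0.18 (adjusted p = 0.816, edgeR). tra-1, the GLI-type transcription factor at the end of the pathway, had 118.8, 47.4 and 166 normalized read counts in AB and 120.8, 84.9 and 164 in P1. Per kb tra-1 averaged 25.0 normalized read counts, below the 71.1 of sdc-2. The groups overlapped for tra-2 and tra-1. fem-3, which promotes male development, had 5405, 5163 and 4414 in AB and 2198, 4074.5 and 3646 in P1. All AB libraries were above all P1 libraries, as in 8.81% of present gene models. The log2 fold change of fem-3 was -0.60 (95% interval -1.10 to -0.10, adjusted p = 0.487, edgeR), the lowest in the list. fem-3 passed in 1 of 17 alternatives, with adjusted p between 0.0951 and 0.893.

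Genes that work with DPY-30 or DPY-21 were also tested. Over all present gene models 1.46% were called and 48.7% were negative. Of 9 SET-2/COMPASS and MLL partners of DPY-30, 9 were present, 0 were called and 8 were negative. The WDR5-type genes wdr-5.3 and wdr-5.2 were at the ends of this list, with log2 fold changes of -0.76 (adjusted p = 0.194) and 0.18 (adjusted p = 0.877) in edgeR. wdr-5.3 had 4544, 4096 and 3507 normalized read counts in AB and 2026, 2892 and 2283 in P1. All its AB libraries were above all P1 libraries, as in 8.81% of present gene models. DESeq2 called wdr-5.3 (adjusted p = 0.0805), as it did 2.14% of present gene models. wdr-5.3 passed in 6 of 17 alternatives, with adjusted p between 0.00388 and 0.664. Among 5 H4K20 and other chromatin factors linked to the compensated X, 0 were called. set-4, the methyltransferase for the higher H4K20 methylation states, was lowest at -0.59 (adjusted p = 0.431, edgeR). set-4 had all AB libraries above all P1 libraries, as in 8.81% of present gene models. It passed in 3 of 17 alternatives, with adjusted p between 0.0680 and 0.893. The histone H2A.Z gene htz-1 was highest at 0.18 (-0.054 with the length correction). Of 5 genes of the SUMO pathway, which modifies several subunits of the complex, 0 were called, and values ran from -0.22 for the E1 subunit gene aos-1 to 0.22 for smo-1, which encodes SUMO (-0.22 with the length correction).

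**Figure D5:**
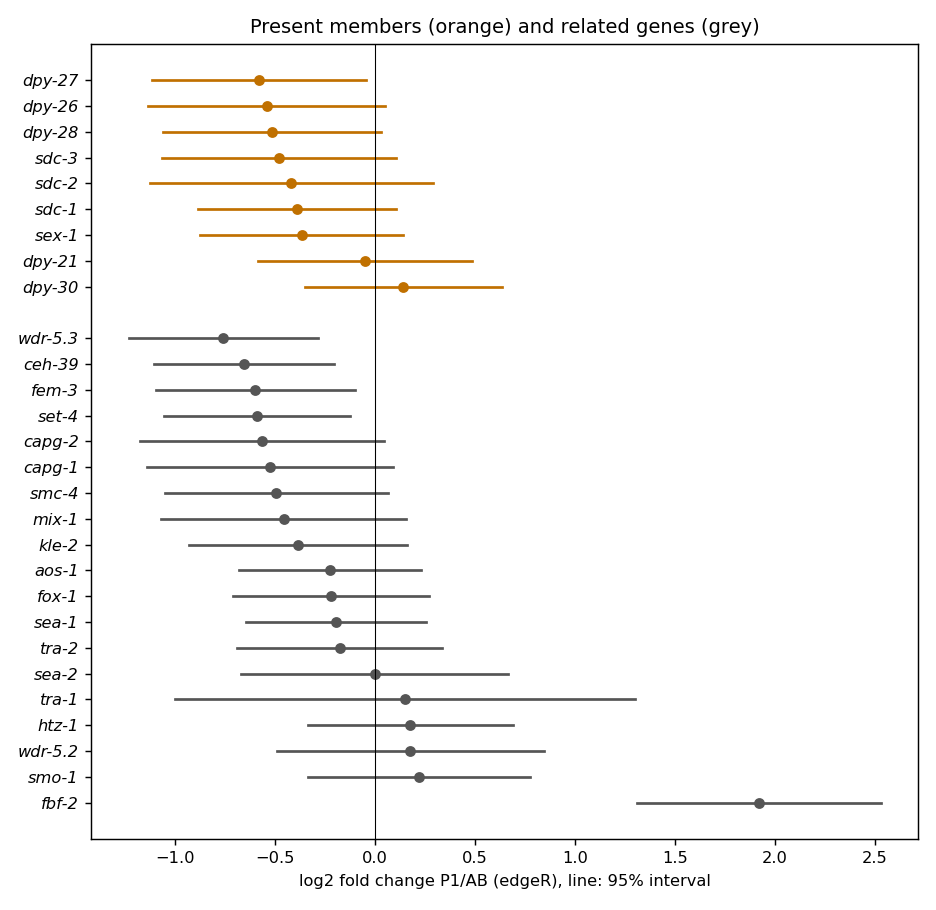
Log2 fold change P1/AB from edgeR (x axis, points) with 95% intervals (lines) for the 9 present members (orange) and named related genes (grey), her-1 not drawn. The interval of dpy-27 alone among the members ends below 0 (-0.04), and fbf-2 at 1.92 lies apart on the P1 side.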

How the data were processed

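RNA-amp-seq libraries of AB and P1 cells (3 each) were grouped by the cell and replicate given in the labels. The authors trimmed reads with Tagdust, aligned them to ce10 with TopHat 1.4.0 and counted them with HTSeq 0.5.3 on RefSeq gene models, and the deposited raw counts are whole reads per gene model. The deposited normalized read counts are a signal in which the authors divided raw counts by 1 DESeq 1.2.1 size factor per library. Whether counting used strand is not stated; no other gene model of the table overlaps a member. Oligo(dT)-primed amplification can favour 3′ ends.

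P1/AB was tested on raw counts with edgeR 4.0.16 (quasi-likelihood, TMM, R 4.3.3) on all 13717 gene models that had reads, without a block, and p was adjusted over these by Benjamini-Hochberg. Gene models were called at an adjusted p below 0.10 if present. On simulated counts for this comparison (13717 gene models), 32 of 100 changes of 1 log2 unit and 71 of 100 of 2 log2 units were recovered, and 3 of 106 calls were false. The simulated libraries had no outlying library, no trend with length and no pairing, so these rates may not hold for the real counts. Pair ratios used a pseudocount of 1. Matched cells were pooled for each replicate number according to the methods, and same-numbered libraries deviated together (correlations 0.175, 0.220 and 0.173), so a fit with the replicate block was also made. Nothing shows whether pools came from separate cultures, so p-values measure the spread between these pools.

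Results were recomputed with DESeq2 1.42.0, a stricter threshold of 0.05, other filters, median-of-ratios size factors, omission of libraries, other lengths and scalings, and a length correction. Lengths came from the WBcel235 annotation, matched by identifier for 98.3% of present gene models. No coordinate of that build was used. Python 3.11.15, numpy 2.4.6, pandas 2.3.3, scipy 1.17.1 and matplotlib 3.10.9 were used. Named genes were all members, 12 fixed genes of the lists, every list gene called, and the highest and lowest fold change of each list. Members and lists were chosen with earlier results of these data known. One muscle marker could not be matched and was not analysed here.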

Additional observations from a re-analysis of the deposited data

How the results depend on the processing

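No member was called higher in P1 under any alternative, and the number called higher in AB was 0 except with P1 replicate 1 or P1 replicate 2 left out, where it was 1, so it ranged from 0 to 1. The median log2 fold change of the members kept its sign under all alternatives and ranged from -0.64 to -0.13 when libraries were left out. With the replicate block it was -0.49, 0 members were called, and adjusted p (edgeR) of the present members lay between 0.528 and 0.9750. The block changed no call of a member or named gene.

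Over all gene models, the calls higher in P1 were 68 in the main test, 27 with filterByExpr, 27 with present genes only, 199 with the length correction and replicate block together, and 44 to 293 when libraries were left out. The calls higher in AB were 48, then 75 with DESeq2, 26 with filterByExpr, 25 with present genes only, 76 with the length correction, 184 with correction and block, and 27 to 279 when libraries were left out. Among related list genes, 1 was higher in P1, with 2 after the length correction, 3 with the block as well and 1 to 3 when libraries were left out. 0 were higher in AB, with 2 by DESeq2, 1 after the length correction, 3 with the block as well and 0 to 5 when libraries were left out.

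Directions turned for 2 members and 6 related genes, none of them called. After the length correction, without and with the block, the log2 fold change was 0.24 and 0.25 for dpy-21, -0.20 and -0.19 for dpy-30, -0.054 and -0.053 for htz-1, -0.22 and -0.22 for smo-1, 0.047 and 0.038 for tra-2, and 0.46 and 0.26 for sea-2. sea-2 also gave 0.0080 with DESeq2, 0.0083 with median-of-ratios size factors, 0.018 with filterByExpr and 0.015 with present genes only. With libraries left out, ranges were -0.25 to 0.33 for dpy-21, -0.14 to 0.29 for dpy-30, -0.89 to 0.31 for her-1, -0.089 to 0.31 for htz-1, -0.41 to 0.27 for sea-2, -0.17 to 0.43 for smo-1, -0.21 to 0.58 for tra-1 and -0.37 to 0.16 for tra-2. The cause of these turns was not tested. The length correction was chosen after seeing the data. No fold change of xol-1 is given under any alternative, because libraries were at 0 reads. her-1 had too few reads for a precise ratio, and with 3 pools per cell the intervals of the present members span about 1 log2 unit or more.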
